A study of Mus musculus with 4 samples.

Results

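The 8 genes described here are Btg1, Btg2, Tob1, Tob2, Zfp36, Zfp36l1, Zfp36l2 and Pnrc1, taken by name from the 31053 genes of the count matrices. All 8 were measured in each library. Their transcripts were counted in single thymocytes of the FVB/N strain on the 10x Genomics platform, which sequences 3′ ends and in which each RNA molecule is counted by a unique molecular identifier (UMI). The 4 libraries were 1 wild type thymus (WT, 6 weeks), 1 preleukemic Tal1/Lmo2 thymus (PL, 6 weeks) and 2 leukemic Tal1/Lmo2 thymi (T-ALL#1 and T-ALL#2, 3 months), each from whole thymus sorted only for viable single cells. The Tal1 and Lmo2 transgenes are driven by the proximal Lck promoter, which is active in developing T cells, and no mouse received a treatment.

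Btg and Tob proteins hold back cell division and bring the CCR4-NOT deadenylase, the enzyme complex that shortens poly(A) tails, to messenger RNAs. Zfp36, Zfp36l1 and Zfp36l2 are zinc finger proteins that bind AU-rich elements in 3′ untranslated regions (UTRs) and recruit the same complex, and in the thymus Zfp36l1 and Zfp36l2 are known for restraining the cell cycle in early thymocytes. Pnrc1 is a small nuclear receptor coregulator with a paralog, Pnrc2, that acts in decapping of messenger RNA. Btg1 and Btg2 are also known for keeping resting T cells quiescent.

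The 3 Zfp36 genes carry in their own messages the element that their proteins bind. In the longest annotated 3′ UTR of each gene (GENCODE, GRCm38), the heptamer TATTTAT was found 3 times in Zfp36, 3 times in Zfp36l1 and 3 times in Zfp36l2. Btg2 and Tob2 held 1 copy each, and Btg1, Tob1 and Pnrc1 held 0, although the 3′ UTR of Btg1 is the longest of the 8 at 4166 bases. Among genes with a 3′ UTR of like length, 1.23% held as many copies as Zfp36, 4.33% as many as Zfp36l1 and 4.31% as many as Zfp36l2, whereas 60.9% of genes with a 3′ UTR like that of Btg1 held at least 1 copy. One site of each gene that has the heptamer is shown with its flanks, with the heptamer in capitals, and in the 3 Zfp36 genes it is the site that lies within the longer TTATTTATT.
Zfp36, chr7:28376952-28376978, minus strand: atgacgacttTATTTATtgtattaaga
Zfp36l1, chr12:80108168-80108194, minus strand: actgttggatTATTTATtttagaaatt
Zfp36l2, chr17:84184915-84184941, minus strand: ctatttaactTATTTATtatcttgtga
Btg2, chr1:134077250-134077276, minus strand: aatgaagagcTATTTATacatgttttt
Tob2, chr15:81849861-81849887, minus strand: atcacctgctTATTTATgtacgaggtt

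The 250 bases before the transcription start (RefSeq, GRCm38.p6) were available for 7 of the 8 genes, and motifs were searched on both strands. Common promoter elements were found before several members. The CCAAT box stood before 5 of the 7 (Btg1, Btg2, Tob1, Zfp36l1 and Pnrc1), with 33.8% of all windows holding it, and the GC box GGGCGG before 5 (Btg1, Btg2, Tob1, Tob2 and Zfp36), with 32.7%. The TATA element TATAAA stood before Btg1, Tob1 and Zfp36l1 (12.4% of all windows), and TGACG, a part of the cAMP response element, before Btg1, Btg2 and Tob1 (17.8%). Other elements were found before 1 member each. The forkhead motif GTAAACA stood before Btg1, among 3.17% of all 32851 such windows that held it, 204 bases before the start and on the opposite strand. The cAMP response element TGACGTCA stood before Btg2, 166 bases before the start, with 1.55% of all windows holding it. A CArG box, the element bound by serum response factor, stood before Zfp36, 58 bases before the RefSeq start, with 1.47% of all windows holding one. That start lies inside the Zfp36 gene as GENCODE bounds it, so the element is upstream by the RefSeq annotation only. The E-box CANNTG, the kind of element that Tal1 complexes bind, was found before Zfp36 alone of the 7 genes, while 66.2% of all windows held one, and its form CAGCTG before 0 of the 7 (13.0% of all windows). A match is a description of the letters, and binding was not measured. The 3 stretches are shown because each holds an element, in capitals, that is uncommon among the windows.
Btg1, chr10:96616777-96616823, plus strand: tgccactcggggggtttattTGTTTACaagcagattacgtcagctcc
Btg2, chr1:134079294-134079341, minus strand: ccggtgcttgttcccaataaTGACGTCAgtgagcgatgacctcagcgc
Zfp36, chr7:28379257-28379306, minus strand: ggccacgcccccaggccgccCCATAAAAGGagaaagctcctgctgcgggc

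The genes lie on 8 chromosomes (GENCODE, GRCm38). Btg1 lies at chr10:96617006-96622809 on the plus strand and Btg2 at chr1:134075170-134079120 on the minus strand. Tob1 lies at chr11:94211454-94215495 on the plus strand and Tob2 at chr15:81848272-81858796 on the minus strand. Zfp36 (chr7:28376784-28380253), Zfp36l1 (chr12:80107754-80113013), Zfp36l2 (chr17:84183931-84187947) and Pnrc1 (chr4:33245423-33290163) are all on the minus strand. Zfp36l1 overlaps an opposite-strand gene, Gm26669, which had 782 UMIs over all libraries, and no copy of Btg1 listed in the matrices had a UMI.

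Cells with over 500 genes and under 10% mitochondrial UMIs were kept, 4220 in WT, 5576 in PL, 5773 in T-ALL#1 and 1975 in T-ALL#2, with 24042062 to 70745712 UMIs per library. The T-ALL#2 matrix held every barcode, and there a cell also needed at least 3416 UMIs. The libraries differed in depth, with a median of 3800.5 UMIs per cell in WT, 4888 in PL, 8742 in T-ALL#1 and 17581 in T-ALL#2. Tal1 was at 0 UMIs in WT and at 410 CPM (the gene's share of all UMIs, scaled to the usual common total) in PL, 68.3 CPM in T-ALL#1 and 234 CPM in T-ALL#2, while Lmo2 stayed at or below 4.48 CPM everywhere, so the matrices check the Tal1 label only. In 2 libraries, WT and PL, Xist and Y-linked genes did not match the labelled sex. The 5 thymocyte markers Cd3e, Cd3d, Thy1, Lck and Bcl11b summed to 1998 to 3615 CPM in every library. Between 0 and 9 cell barcodes were shared by any pair of libraries. The WT and preleukemic groups hold 1 mouse each, so differences between libraries were not tested, and their intervals cover counting error only.

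All 8 genes were detected in every library. By UMIs, which count 3′ ends and do not scale with transcript length, Btg1 and Btg2 were the most abundant in WT and in T-ALL#1. Over all kept cells Btg1 stood at 687 CPM in WT, 412 in PL, 436 in T-ALL#1 and 179 in T-ALL#2. Btg2 stood at 521, 275, 282 and 146 CPM in the same order. Over all kept cells both were highest in the WT thymus and lowest in T-ALL#2, and in PL and T-ALL#1 they were at similar levels. In non-cycling cells, defined below, Btg1 was at 587 CPM in PL and 900 in T-ALL#1, and Btg2 at 372 and 517.

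Pnrc1 varied least, at 310 CPM in WT, 291 in PL, 169 in T-ALL#1 and 190 in T-ALL#2. Zfp36l2 had an order of its own, with 180 CPM in WT, 456 in PL, 124 in T-ALL#1 and 191 in T-ALL#2, so that it was the most abundant of the 8 by UMIs in PL and shared the first place with Pnrc1 in T-ALL#2, where their intervals overlapped (187 to 196 and 186 to 195 CPM). Zfp36l1 was at 161, 63.4, 38.7 and 49.0 CPM, with WT far above the 3 Tal1/Lmo2 thymi. Zfp36, the founding member of its family, was at 55.1, 15.8, 29.7 and 14.2 CPM, and the Poisson intervals of PL (14.6 to 17.1) and T-ALL#2 (13.0 to 15.5) overlapped. The Tob genes were low, with Tob2 at 72.8, 40.0, 44.5 and 16.4 CPM and Tob1 at 30.2, 16.9, 7.48 and 14.4 CPM.

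Of the 8 genes, 1 was at least 2-fold higher in PL than in WT (Zfp36l2, 2.53-fold) and 2 were at least 2-fold lower (Zfp36, 3.48-fold, and Zfp36l1, 2.54-fold). Of 8417 genes with at least 10 CPM in either library, 4.46% were 2-fold or more higher and 4.88% were 2-fold or more lower. Against PL, 0 of the 8 genes were 2-fold higher in both leukemias, where 2.28% of 8173 genes were, and 1 was 2-fold lower in both (Zfp36l2, by 3.66-fold in T-ALL#1 against 2.38-fold in the other leukemia), as were 10.9%. With TMM factors in place of library totals, Zfp36l2 no longer passed 2-fold in both leukemias. The cell classes also differed between thymi, since cells with neither Cd4, Cd8a nor Il2ra made up 63.1% of PL and 9.12% of WT. These shares depend on depth, since a shallow cell can lack a UMI of a gene it expresses, and were 77.0% and 25.2% with every cell thinned to 2000 UMIs. Within non-cycling cells of 1 class, Zfp36l2 was higher in PL than in WT in 3 of the 5 classes, at 738 against 287 CPM in cells without Il2ra or coreceptors, at 365 against 222 CPM in Cd8a+ Cd4- cells and at 280 against 150 CPM in double-positive cells. In cells that had Il2ra but neither coreceptor it stood at 492 CPM in PL and 472 CPM in WT, a log2 difference of 0.06 (95% interval -0.19 to 0.31), and in Cd4+ Cd8a- cells at 202 CPM (41 UMIs) and 219 CPM. By UMIs per non-cycling cell it was at 3.48 in PL and 1.23 in WT in the class without Il2ra or coreceptors, and at 1.52 and 0.451 in double-positive cells. Zfp36 in non-cycling cells stood at 20.8 CPM in PL and 81.6 in WT in the class without Il2ra or coreceptors. It was at 25.2 and 71.0 in Cd8a+ Cd4- cells and 40.0 and 71.7 in double-positive cells. In Cd4+ Cd8a- cells it was at 44.3 (9 UMIs) and 79.5. With Il2ra but neither coreceptor it was at 22.3 and 15.4 (5 UMIs). In the same order Zfp36l1 stood at 82.6 and 265, 85.3 and 242, 96.0 and 173, 246 and 242, and 92.0 and 167 CPM.

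**Figure D1:**
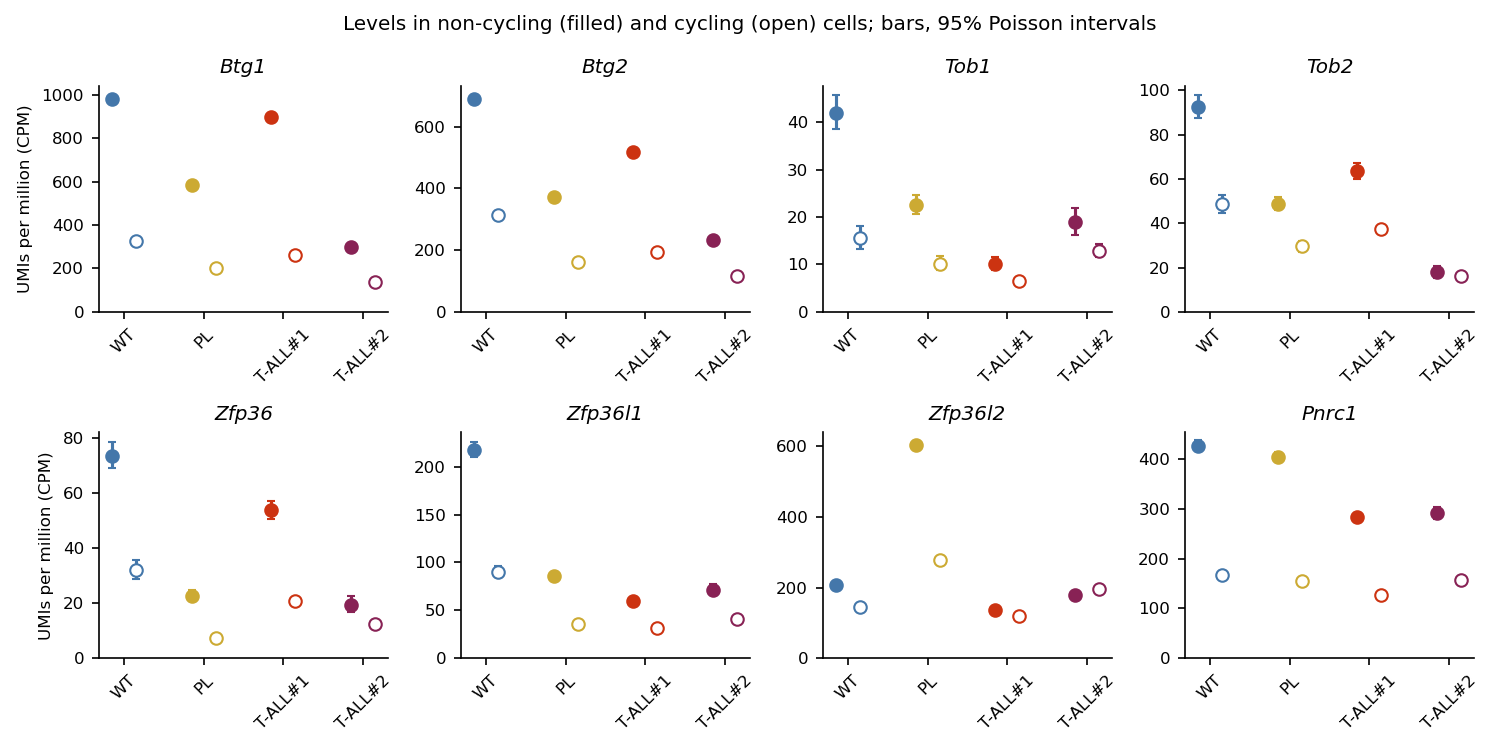
Each panel plots 1 gene, with CPM on the vertical axis and the 4 libraries on the horizontal axis, filled points for non-cycling cells, open points for cycling cells and bars for 95% Poisson intervals. Non-cycling cells lie above cycling cells in all 4 libraries for all genes except Zfp36l2, which in T-ALL#2 was at 178 CPM in non-cycling and 196 CPM in cycling cells.

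The genes are known as brakes on proliferation, so cycling cells, defined as those with a UMI of Mki67 or Top2a, were compared with the rest within each thymus. The cycling group held 870 cells in WT, 1325 in PL, 2767 in T-ALL#1 and 1222 in T-ALL#2. A label set by 1 UMI depends on depth and on free RNA. After thinning to 2000 UMIs, 589, 715, 1769 and 557 cells had it, and empty barcodes of T-ALL#2 held Mki67 at 152 CPM and Top2a at 147 CPM, against 140.0 and 229 CPM in cells. The part of these in the comparison of the states was not tested. Btg1 in non-cycling cells stood at 981 CPM in WT, 587 in PL, 900 in T-ALL#1 and 298 in T-ALL#2, and in cycling cells at 324, 203, 263 and 139 CPM. In each thymus the non-cycling level was the higher one, by 3.03-, 2.89-, 3.42- and 2.14-fold. Btg2 was at 688, 372, 517 and 231 CPM in non-cycling and at 315, 160, 194 and 117 CPM in cycling cells, 1.97- to 2.67-fold apart. Pnrc1 was at 426, 404, 284 and 291 CPM in non-cycling cells against 167, 155, 127 and 157 CPM, and the cycling levels of the 4 thymi lay close together.

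Zfp36 was at 73.7, 22.8, 53.9 and 19.5 CPM in non-cycling and at 32.2, 7.52, 20.7 and 12.4 CPM in cycling cells. Zfp36l1 was at 218, 86.1, 59.3 and 71.5 CPM against 90.2, 36.3, 31.1 and 41.5 CPM. Both zinc finger genes were higher in non-cycling cells of every thymus, with the smallest difference of each in T-ALL#2. Tob1 was at 42.1, 22.6, 10.1 and 18.9 CPM in non-cycling and at 15.6, 10.2, 6.50 and 12.8 CPM in cycling cells. Tob2 was at 92.5, 48.8, 63.5 and 17.8 CPM against 48.5, 29.6, 37.5 and 16.0 CPM, and in T-ALL#2 its interval on the log2 scale, -0.12 to 0.42, included 0. Zfp36l2 was at 208, 603, 136 and 178 CPM in non-cycling and at 145, 279, 120 and 196 CPM in cycling cells, so that its direction in T-ALL#2 was opposite to that of the other 3 thymi.

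In a fit over the 4 thymi (n = 4 mice of 3 groups), with the library as a block (edgeR quasi-likelihood test, Benjamini-Hochberg adjusted over 11856 genes), 7 of the 8 genes were higher in non-cycling cells and 0 were lower. Of all genes tested, 26.6% were higher and 26.1% were lower. The largest fitted log2 difference among the members was that of Btg1, 1.33 (SE 0.12, adjusted p = 0.000258), followed by Zfp36 at 1.04 (SE 0.13), Pnrc1 at 1.03 (SE 0.096) and Btg2 at 1.01 (SE 0.097). Zfp36l1 followed at 0.89 (SE 0.091), Tob1 at 0.78 (SE 0.15, adjusted p = 0.00424) and Tob2 at 0.48 (SE 0.11, adjusted p = 0.00885). Zfp36l2 did not pass, at 0.25 (SE 0.17, adjusted p = 0.252). The median over the members was 0.95, and over all genes it was 0.042. The calls held with any 1 library left out, and without the block only Btg1 and Pnrc1 passed. TMM scaling put these values a mean of 0.17 lower on the log2 scale than ratios of plain CPM.

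The same split moved other lists. Of 10 genes tied to quiescence, 10 were higher in non-cycling cells, led by S1pr1 (log2 1.88), Ypel3 (1.61), Txnip (1.49) and Mxd4 (1.49). S1pr1 and Klf2 of that list are also markers of mature T cells, of which 4 of 5 were higher, as were 4 of the 5 thymocyte markers, while 0 of 4 gamma delta T cell markers passed. Of 13 immediate early genes tested, which respond within minutes to stimulation or tissue dissociation, 9 were higher, among them Egr2 (1.26) and Nr4a1 (0.86). The summed level of that list was 1140 to 2043 CPM in non-cycling and 707 to 1127 CPM in cycling cells. B cell markers (3 of 3 tested) were also higher, but the sum of the 5 listed, of which Ms4a1 was at 0 in WT, did not exceed 28.4 CPM in either state. The part of these in the members' values was not tested. All 10 cell cycle genes of the check list were lower, with Ccna2 at -5.46.

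Genes of the decay machinery that the members work with went both ways. Of 12 CCR4-NOT subunits, 2 were higher in non-cycling cells (Cnot6l, a catalytic subunit, at 0.47, and Cnot4 at 0.30) and 2 were lower (Cnot9 at -1.13 and Cnot11 at -0.54). Of 13 other genes of messenger RNA decay, 5 were higher, including Pan3 (0.59) and Xrn1 (0.56), and 2 were lower, with Prmt1, an arginine methyltransferase known to bind Btg proteins, at -0.92. Of 6 further AU-rich element binding proteins, 5 were lower, led by Hnrnpd (-1.25) and Ybx1 (-1.23), and Tia1 was higher (0.54). Of 13 known messages of cell cycle, survival and cytokine genes with AU-rich elements, Ccne2 (-3.88), E2f2 (-2.63) and E2f1 (-2.41), which drive S phase entry, were lower and Ccnd2 (0.98) was higher. Among the remaining relatives, Pnrc2 was higher (0.40), while Btg4 and Zfp36l3 did not pass the filter on low counts.

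CPM is a share of a cell's UMIs, and the 2 states differed in that total. The median was 3280 UMIs in non-cycling and 9866.5 in cycling cells of WT, 4316 and 12890 in PL, 4788 and 18481 in T-ALL#1, and 11194 and 22654 in T-ALL#2. Counted as UMIs per cell, the 2 states compared differently. Btg1 had 3.89 UMIs per non-cycling and 4.01 per cycling cell in WT, 3.07 and 2.86 in PL, 5.74 and 4.90 in T-ALL#1, and 3.61 and 3.09 in T-ALL#2, a ratio of cycling to non-cycling between 0.853 and 1.03. Pnrc1 had 1.69 and 2.06 UMIs per cell in WT, 2.11 and 2.17 in PL, 1.81 and 2.37 in T-ALL#1, and 3.52 and 3.47 in T-ALL#2. For Pnrc1 the ratio lay between 0.987 and 1.31, so between the states neither gene rose in proportion to the UMI total. UMIs per cell were also compared between non-cycling cells of 2000 to 4000 and of 8000 to 16000 UMIs. Pnrc1 went from 1.71 to 2.61 in WT, 1.76 to 2.96 in PL, 1.44 to 2.39 in T-ALL#1 and 2.75 to 3.63 in T-ALL#2. Btg1 rose from 3.39 to 7.06 in WT, 2.31 to 4.45 in PL and 5.14 to 6.00 in T-ALL#1. In T-ALL#2 Btg1 fell from 4.54 to 3.69.

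Zfp36l2 was higher per cycling cell in all 4 thymi, with 0.826 and 1.79 UMIs in WT, 3.15 and 3.92 in PL, 0.868 and 2.24 in T-ALL#1, and 2.15 and 4.35 in T-ALL#2. Tob2 was also higher per cycling cell, by nearly the same ratio in each thymus, 1.63 to 1.73. For Btg2 the ratio of cycling to non-cycling UMIs per cell was 1.43 in WT, 1.16 in PL, 1.10 in T-ALL#1 and 0.930 in T-ALL#2. For Zfp36 it ran from 0.886 to 1.36, for Zfp36l1 from 1.06 to 1.53 and for Tob1 from 1.16 to 1.88.

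**Figure D2:**
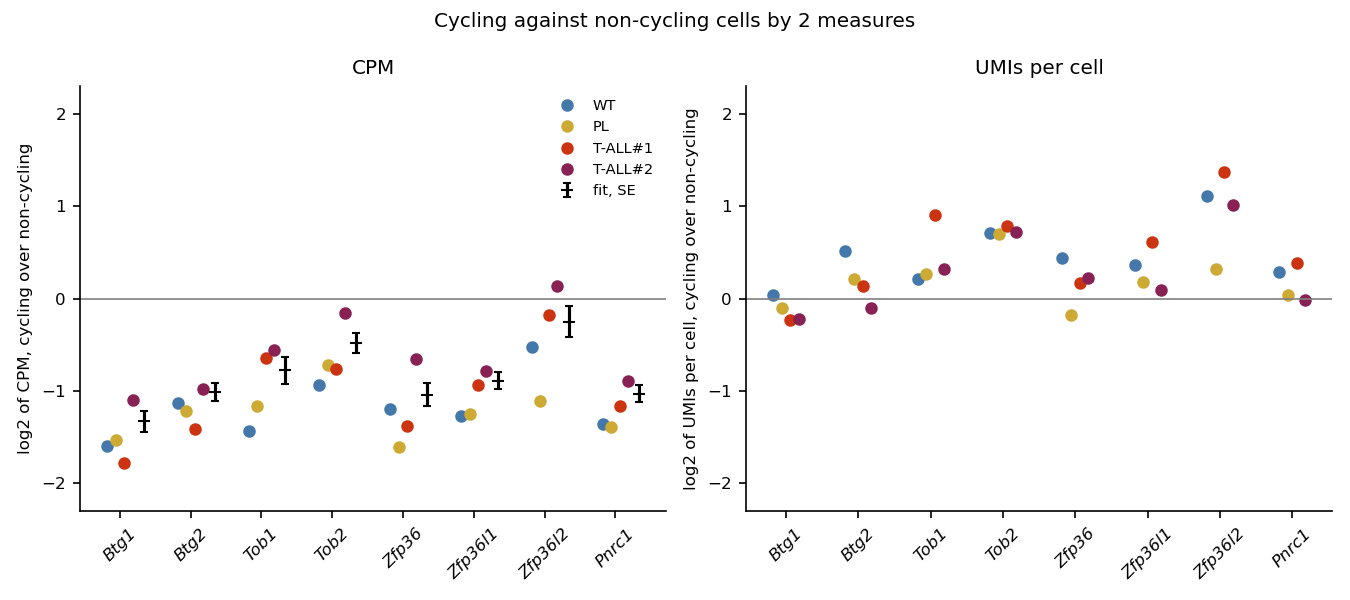
The 2 panels give log2 of cycling over non-cycling cells for each gene, by CPM on one side and by UMIs per cell on the other, with 1 point per library and, for CPM, the fitted value with its SE as a black mark. By CPM the points lie below 0 except Zfp36l2 in T-ALL#2, and by UMIs per cell most points lie at or above 0, with Btg1 between 0.853 and 1.03 on the linear scale.

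When each cell was thinned to 2000 UMIs, leaving out 991 shallower cells of WT, 350 of PL, 94 of T-ALL#1 and 0 of T-ALL#2, and the states were set again from the thinned counts, Btg1 was detected in 78.3% of non-cycling cells of WT, 62.8% of PL, 72.4% of T-ALL#1 and 40.7% of T-ALL#2. In cycling cells it was detected in 46.9, 33.8, 42.7 and 26.6%. Without thinning the same shares were 87.5, 87.2, 97.0 and 93.6% in non-cycling and 88.9, 84.3, 95.3 and 89.4% in cycling cells, where the cycling cells were the deeper ones and most cells of both states had a UMI. Btg2 was detected in 63.4, 48.0, 58.8 and 32.9% of thinned non-cycling and 48.6, 31.5, 37.1 and 21.4% of thinned cycling cells. For Pnrc1 the shares were 55.9, 55.4, 42.6 and 40.4% against 33.8, 30.6, 24.0 and 26.4%.

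Zfp36l2 again behaved otherwise, with 29.0, 58.5, 21.7 and 28.0% of thinned non-cycling and 27.8, 38.3, 21.0 and 33.0% of thinned cycling cells, so that PL was the only thymus with a wide gap. A thinned cell showed a mean of 2.95 of the 8 genes in non-cycling and 1.98 in cycling cells of WT, 2.58 and 1.55 in PL, 2.31 and 1.48 in T-ALL#1, and 1.66 and 1.25 in T-ALL#2. In the fit on thinned counts 6 of the 8 genes were higher in non-cycling cells, as were 18.8% of 9753 genes (19% were lower, with 0 of the 8), and Tob2 lost its call (0.21, adjusted p = 0.208). Thinning sets every cell to 1 total but keeps the make-up of large and small cells.

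Inside each state, the share of UMIs that belonged to some members was lower in cells with a higher UMI total. In non-cycling cells of 2000 to 4000, 4000 to 8000 and 8000 to 16000 UMIs, Btg1 was at 1153, 997 and 700 CPM in WT, at 739, 651 and 416 CPM in PL, at 1585, 1176 and 535 CPM in T-ALL#1, and at 1196, 630 and 313 CPM in T-ALL#2. Over the same windows Pnrc1 went from 581 to 259 CPM in WT, from 563 to 277 in PL, from 445 to 214 in T-ALL#1 and from 724 to 309 in T-ALL#2, which is 2.03- to 2.35-fold lower. In T-ALL#2 the lowest window held 24 cells, which by the cell limit had at least 3416 UMIs. Between the lowest and the highest of these windows 4 of the 8 genes (Btg1, Btg2, Zfp36 and Pnrc1) were lower in all 4 libraries, as were 36.7% of 6932 genes with at least 10 CPM, and 0 were higher in all 4, against 11.5%. The value of Zfp36 in the lowest window of T-ALL#2 rests on 4 UMIs, at 43.9 CPM (12.0 to 112), an interval that includes the 20.2 CPM of the highest window. Tob1 and Tob2 were lower in WT, PL and T-ALL#1. They missed the count through T-ALL#2, whose lowest window held 2 UMIs of Tob1 and 0 of Tob2.

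Btg2 differed most over these windows in WT, with 1189 CPM in the lowest and 281 CPM in the highest (4.24-fold), against 1.52- to 2.18-fold in the other thymi. Zfp36 was lower in the highest window by 1.42-fold in WT, 2.00-fold in PL and 3.40-fold in T-ALL#1. Zfp36l2 was at 859 and 421 CPM in the lowest and highest window of PL, but at 153 and 233 CPM in WT and at 128 and 164 CPM in T-ALL#1. Zfp36l1 was at 121 and 60.6 CPM in PL and at 92.2 and 39.5 CPM in T-ALL#1, but at 196 and 222 CPM in WT. In T-ALL#2 its lowest window held 6 UMIs, at 65.8 CPM (24.2 to 143), and it stood at 156, 76.2 and 40.1 CPM in the windows from 4000, 8000 and 16000 UMIs on. These window values were not tested. Class make-up also changed with the UMI total. In WT, 284 of 1593 non-cycling double-positive cells had 4000 to 16000 UMIs, against 32 of 34 with Il2ra but neither coreceptor. Btg2 was at 1171 CPM in the former class and 417 CPM in the latter. The part of class make-up in the window values was not tested.

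**Figure D3:**
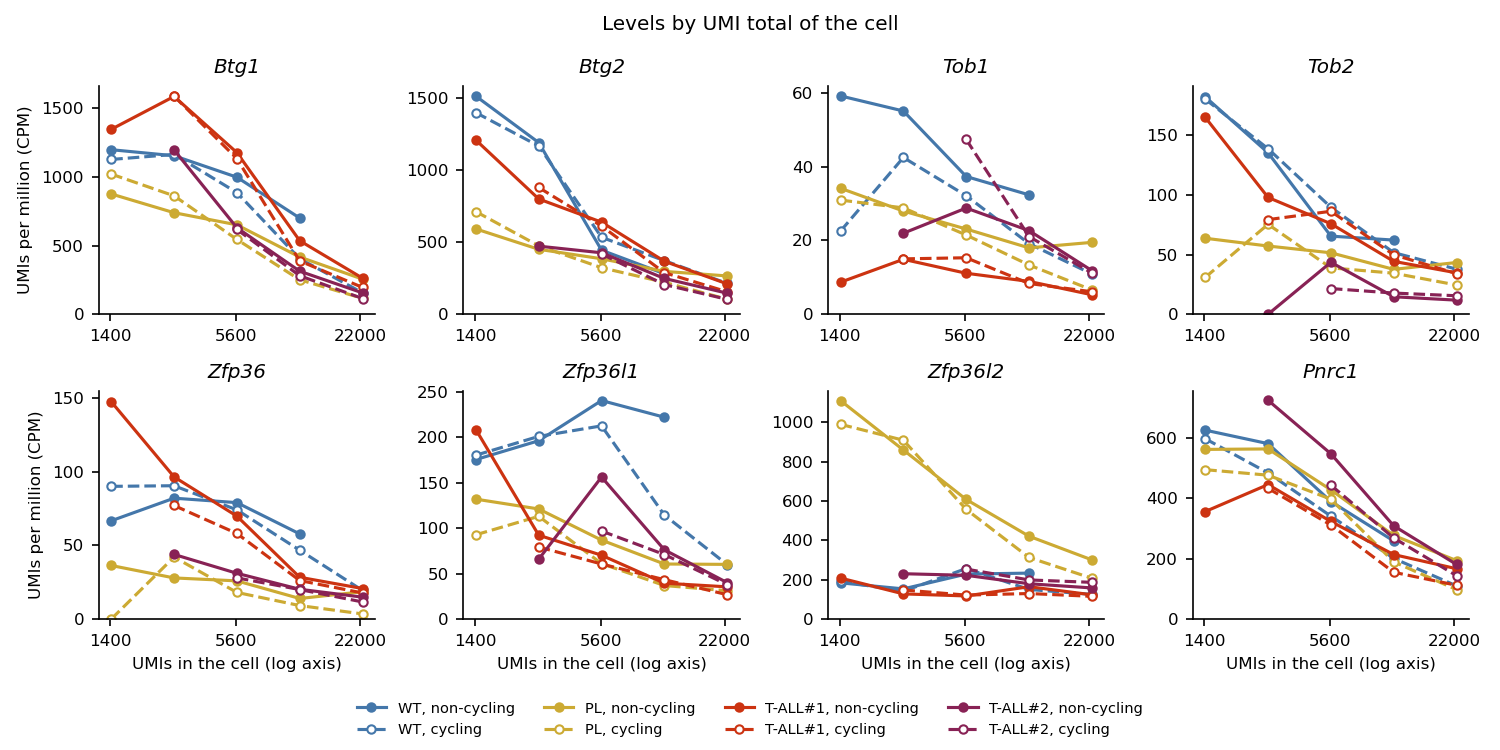
Each panel plots 1 gene, with CPM on the vertical axis against the UMI total of the cells on a log axis (points at the geometric centre of windows that double in width), filled points for non-cycling and open points for cycling cells, 1 colour per library and only groups of at least 20 cells. From 2000 UMIs on, Btg1 and Pnrc1 are lower in each window of higher UMI total in both states, whereas below it Btg1 of T-ALL#1 non-cycling cells goes from 1346 to 1585 CPM. At 4000 to 8000 UMIs the intervals of Btg1 in non-cycling and cycling cells overlap in the leukemias and not in WT (972 to 1023 and 825 to 949 CPM) or PL (635 to 667 and 508 to 583 CPM), and at 2000 to 4000 UMIs PL cycling cells lie higher (862 against 739 CPM).

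Within 2 windows of UMI totals the states were closer, by fits that were added after seeing the data. Among cells of 4000 to 8000 UMIs, 1 of the 8 genes was higher in non-cycling cells, Zfp36l1 at a log2 difference of 0.37 (SE 0.094, adjusted p = 0.0415, edgeR), and 0 were lower, where 0.421% of 8793 genes were higher and 1.84% lower. Btg1 was at 997 CPM in non-cycling and 885 in cycling cells of that window in WT, at 651 and 544 in PL, at 1176 and 1132 in T-ALL#1, and in T-ALL#2 at 630 and 617, a fitted difference of 0.16 (SE 0.062, adjusted p = 0.261). For Pnrc1 the fitted difference was 0.18 (SE 0.067, adjusted p = 0.226) and for Btg2 it was 0.045 (SE 0.073, adjusted p = 0.878). The window still set the states apart, since 6 of 10 cell cycle genes were lower in its non-cycling cells, with a median log2 difference of -2.94 over the 10. The label rested on fewer UMIs per cell there. Mki67 and Top2a had 292 and 377 UMIs in 153 cycling cells of WT and 153 and 313 in 261 of PL. They had 254 and 360 in 291 of T-ALL#1 and 65 and 71 in 77 of T-ALL#2. Over all totals they had 8520 and 11085 in 870 cells of WT and 7179 and 9502 in 1325 of PL. The leukemias then had 29805 and 33833 in 2767 cells, and 5072 and 8299 in 1222. Of the 10 quiescence genes, 2 passed there, Klf2 (0.43) and Ypel3 (0.34).

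Among cells of 8000 to 16000 UMIs, 2 of the 8 genes were higher in non-cycling cells, Btg1 at 0.56 (SE 0.12, adjusted p = 0.0167) and Pnrc1 at 0.41 (SE 0.088, adjusted p = 0.0156), and 0 were lower, where 6.73% of 10059 genes were higher and 9.78% lower. Btg1 was at 700 CPM in non-cycling and 404 in cycling cells in WT, at 416 and 251 in PL, at 535 and 388 in T-ALL#1, and at 313 and 280 in T-ALL#2, the non-cycling level being higher each time. Pnrc1 was at 259 and 201, 277 and 189, 214 and 155, and 309 and 269 CPM in the same order. Btg2 was at 281 CPM in non-cycling and 371 in cycling cells of WT and higher in non-cycling cells of the other 3 thymi, with a fitted difference of 0.18 (adjusted p = 0.335). Within this window the cycling cells remained deeper, with a median of 11282.5 UMIs against 9452.5 in WT and 12706.5 against 11777 in T-ALL#2. Each fit had fewer cells than that over all totals, and a p that misses the threshold does not show that the states were alike. Cells of 16000 to 32000 UMIs were not fitted, and WT had no value to compare there. In PL, with 58 non-cycling cells there, the states were further apart than over all cells for Btg2, Tob1, Tob2 and Zfp36. Their log2 differences were 1.35, 1.56, 0.82 and 2.41, against 1.21, 1.16, 0.72 and 1.60. The other members were closer there, with Btg1 at 1.14 against 1.53. In the leukemias the differences were smaller than over all cells, with these exceptions. Tob1 in T-ALL#1 turned sign, at -0.21 against 0.64 over all cells, as did Tob2 in T-ALL#2, at -0.39 against 0.15. Zfp36l2 in T-ALL#2 was higher in cycling cells both times, at -0.24 against -0.14.

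**Figure D4:**
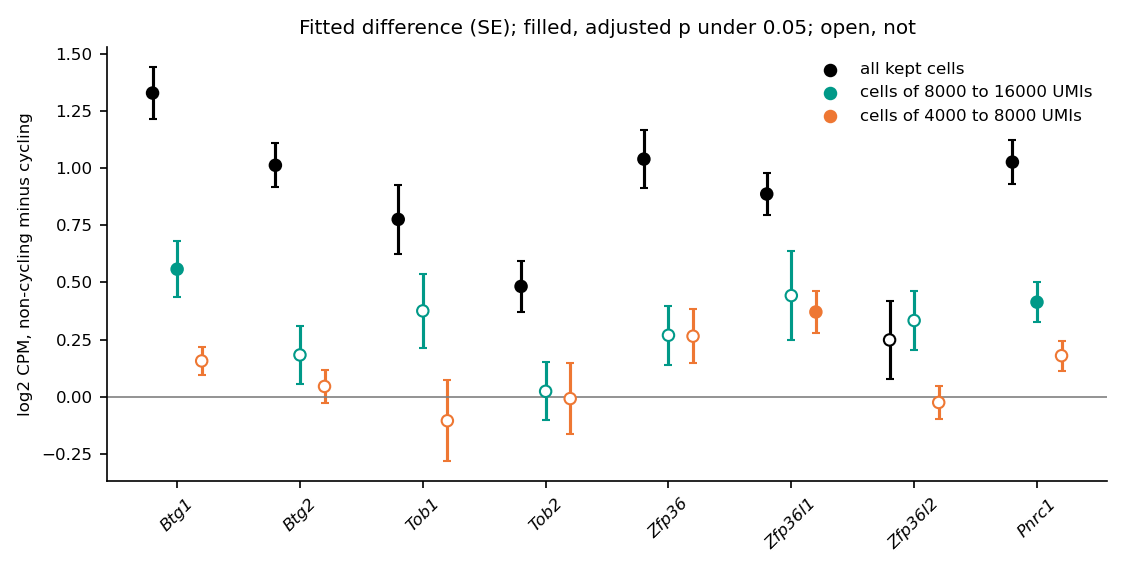
Fitted log2 differences of CPM (non-cycling minus cycling cells, vertical axis) with their SE are shown for each gene over all cells and over the windows of 4000 to 8000 and 8000 to 16000 UMIs, filled where the adjusted p was under 0.05. Btg1 stands at 1.33, 0.16 and 0.56 in these fits, and 7, 1 and 2 of the 8 genes are filled.

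Thymocytes pass from Il2ra-expressing cells without coreceptors to cells with both Cd4 and Cd8a, and the members were compared between these 2 classes among non-cycling cells. The Il2ra class held 34 cells in WT, 270 in PL, 149 in T-ALL#1 and 150 in T-ALL#2, and the double-positive class 1593, 115, 1488 and 117. A class set by 1 UMI also depends on free RNA. In T-ALL#2, Cd4 was at 10.5 CPM in empty barcodes and 13.8 CPM in cells, a log2 difference of 0.40 (-0.26 to 1.15). Cd8a was at 89.3 and 117 CPM and Il2ra at 133 and 184 CPM, with intervals above 0. The part of free RNA in the class comparison was not tested. Btg1 was at 432 CPM in the Il2ra class and 1146 CPM in double-positive cells of WT, at 425 and 661 in PL, at 675 and 1169 in T-ALL#1, and at 204 and 473 in T-ALL#2. Btg2 was at 417 and 1171 CPM in WT, at 271 and 551 in PL, at 393 and 638 in T-ALL#1, and at 168 and 371 in T-ALL#2. As a share of UMIs, double-positive cells had more of both within each thymus. By UMIs per cell this held in PL and the leukemias, while in WT, with medians of 8581 UMIs in the Il2ra class and 2554 in double-positive cells, Btg1 was at 4.12 in the Il2ra class and 3.44 in double-positive cells and Btg2 at 3.97 and 3.52.

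In the fit over the 4 thymi (edgeR, 8702 genes, library as a block) Btg2 was lower in the Il2ra class by a log2 difference of -0.97 (SE 0.15, adjusted p = 0.0096) and Btg1 by -0.89 (SE 0.15, adjusted p = 0.0105). These 2 of the 8 genes were lower, as were 2.16% of all genes, and 0 were higher, against 3.19%. Both held among cells of 4000 to 16000 UMIs, a window added after seeing the data, at -0.75 (adjusted p = 0.00294) for Btg2 and -0.75 (adjusted p = 0.00383) for Btg1, where 2 of the 8 genes and 1.86% of 7464 genes were lower and 0 of the 8 and 3.26% were higher. Without the PL library both lost the call (adjusted p = 0.0678 for each), and without T-ALL#2 Btg1 lost it (0.0597).

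The other members did not pass in that comparison, though more members passed with a filter of 1 UMI. Pnrc1 was at 216 and 529 CPM in the Il2ra class and double-positive cells of WT, at 271 and 341 in PL, at 245 and 315 in T-ALL#1 and at 263 and 394 in T-ALL#2, lower in the Il2ra class of all 4 thymi as a share of UMIs, with a fitted difference of -0.51 (SE 0.078). By UMIs per cell it was the other way in all 4, at 2.06 and 1.59 in WT, 2.12 and 1.85 in PL, 1.78 and 1.69 in T-ALL#1, and 3.72 and 3.59 in T-ALL#2. Tob2 had -0.62 (SE 0.098), Zfp36 -0.64 (SE 0.15) and Tob1 -0.55 (SE 0.22), and Zfp36 had 5 UMIs in the Il2ra class of WT. Zfp36l2 had the opposite sign, at 472 and 150 CPM in WT and 492 and 280 CPM in PL, but at 128 and 107 CPM in T-ALL#1 and 170 and 194 CPM in T-ALL#2, where the intervals of the log2 difference included 0 (-0.01 to 0.52 and -0.45 to 0.06). Its fitted difference was 0.75 (SE 0.20). Without thinning, Zfp36l1 split the leukemias. In T-ALL#1 it was at 91.4 and 60.4 CPM, a log2 difference of 0.60 (0.27 to 0.91). In T-ALL#2 it was at 57.1 and 100.5 CPM, a log2 difference of -0.82 (-1.20 to -0.43). WT and PL were near 0 at -0.05 and -0.06, and the fitted difference of Zfp36l1 was 0.049 (SE 0.21). With cells thinned as above, Zfp36l1 in T-ALL#1 was at 78.9 and 77.4 CPM, a log2 difference of 0.03 (-0.47 to 0.51). In thinned T-ALL#2 cells the log2 difference was -0.64 (-1.90 to 0.90), with 6 UMIs in double-positive cells. After thinning, the intervals of both leukemias thus included 0. Whether the 2 leukemias differ beyond the spread between mice was not tested.

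**Figure D5:**
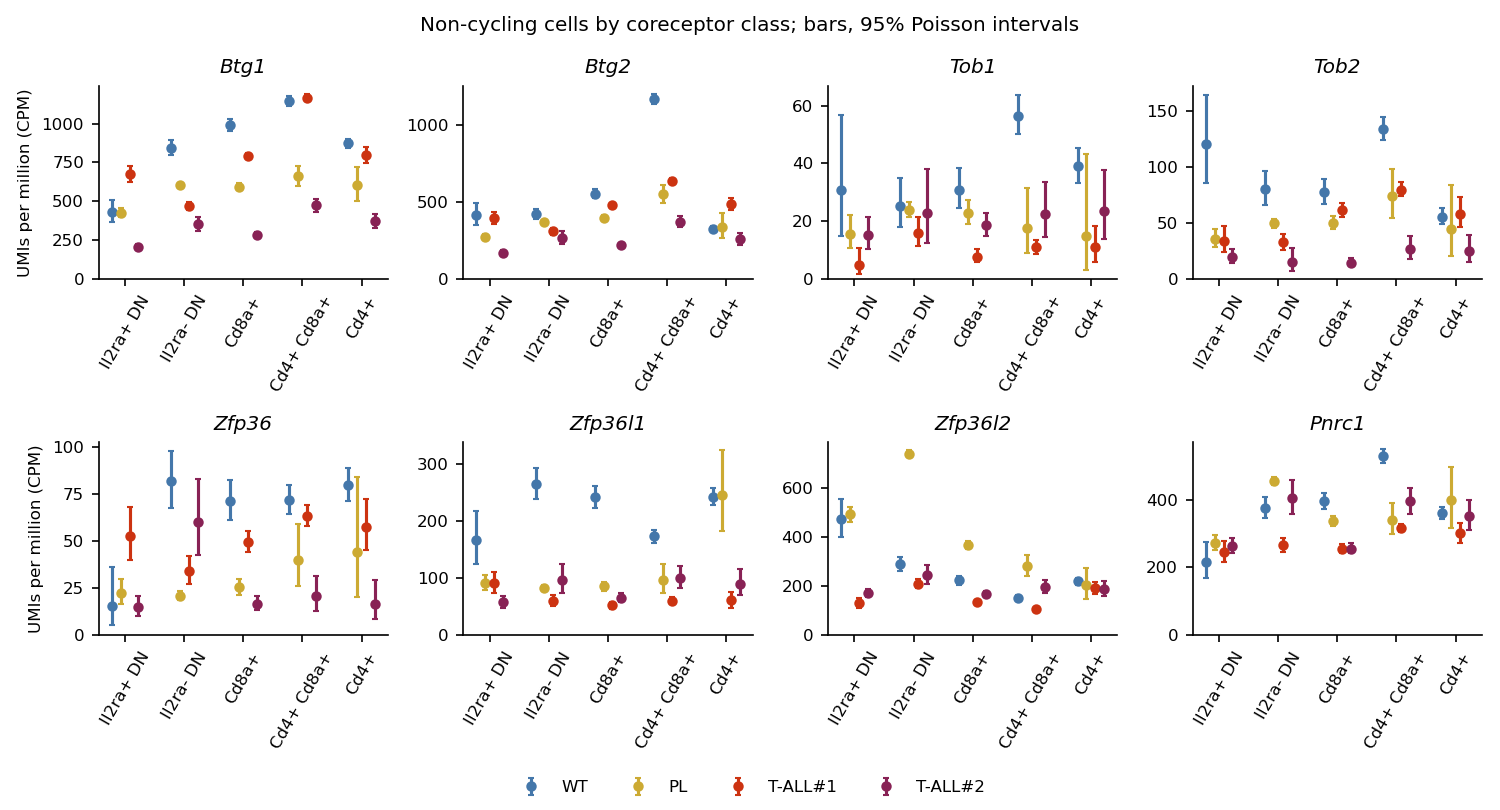
Each panel plots CPM of 1 gene (vertical axis) in non-cycling cells by coreceptor class (horizontal axis), with 1 colour per library and 95% Poisson intervals as bars. Btg1 and Btg2 are higher in double-positive than in Il2ra cells of each library, and Zfp36l2 is highest in PL cells with neither coreceptor nor Il2ra, at 738 CPM.

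Few genes of any kind passed between the classes, with 3.19% of all 8702 genes higher and 2.16% lower in the Il2ra class. Beside these shares, low counts in lists of the same pathway say little about the pathway. Of 11 CCR4-NOT subunits tested 0 passed in either direction, and of 13 decay genes Prmt1 was higher (0.64) and Pan3 lower (-0.54) in the Il2ra class. Of 10 messages with AU-rich elements, Bcl2, a survival gene, was higher (1.03) and E2f2 lower (-1.64). Of 12 immediate early genes 0 passed, and of the 10 quiescence genes 3 were lower in the Il2ra class, Foxo1 (-0.96), Mxd4 (-0.82) and Cdkn1b (-0.70). The Il2ra class was the deeper one in WT, PL and T-ALL#2 and near the double-positive class in T-ALL#1 (medians of 4773 and 4533 UMIs).

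Outside these classes, Zfp36l2 in non-cycling cells without Il2ra or coreceptors was at 287 CPM in WT, 738 in PL, 208 in T-ALL#1, and 245 for T-ALL#2. This was the highest of its 5 classes in all but WT, though in both leukemias the intervals overlapped those of Cd4+ Cd8a- cells. In T-ALL#2 the interval also overlapped that of double-positive cells, at 194 CPM. Btg2 in Cd4+ Cd8a- cells was at 326 CPM in WT, below the 1171 CPM of double-positive cells, whereas in T-ALL#1 it was at 487 against 638 CPM. Zfp36l1 in WT was at 265 CPM in cells without Il2ra or coreceptors and at 173 CPM in double-positive cells. The WT cells without Il2ra or coreceptors also held myeloid transcripts, 312 CPM over the 5 listed markers in non-cycling and 10465 CPM in the 45 cycling cells, against at most 48.6 CPM in the same class of the other libraries, with S100a8 and S100a9 at 0 there. The part of these cells in the WT values of that class was not tested.

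Across 39 groups of at least 20 cells (library by class by cycling state), Zfp36 had the widest range (29.5-fold). Its lowest value, 2.77 CPM in cycling Il2ra cells of PL, rests on 10 UMIs. Its highest was 81.6 CPM in the WT non-cycling cells without Il2ra or coreceptors, the class that held myeloid transcripts. Pnrc1 had the narrowest range, from 99.3 to 529 CPM (5.33-fold). Btg1 and Btg2 followed each other closely over these groups, with a Pearson r of 0.93 on log2(CPM + 10), and Btg1 also followed Zfp36 (0.82) and Pnrc1 (0.79). Zfp36l2 followed no other member, with r between -0.16 and 0.38. The groups share libraries, depth and the cycling split, so these values describe them and carry no test.

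Of 2938 genes with a mean of at least 50 CPM over the groups, the 3 most like Btg1 were Ablim1 (0.96), Ube2h (0.95) and Dgka (0.94). Those most like Btg2 were Gsk3b (0.94), Cdkn1b (0.93), which codes for the cell cycle inhibitor p27, and Baz2a (0.93). Pnrc1 was most like Avl9 (0.95), Ccnl1 (0.93) and Chd2 (0.91), and Tob2 most like Ddx50 (0.90), Fam193b (0.90) and Zfp131 (0.90). For Zfp36 the list was Laptm5 (0.88), Gramd1a (0.88) and Ets1 (0.86), for Zfp36l1 it was Ltb (0.91), Cytip (0.90) and Cd52 (0.88), and for Tob1 it was Stk24 (0.85), Kansl1 (0.83) and Ccnl1 (0.82).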

How the data were processed

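Thymocyte libraries of 4 mice were analysed from the count matrices that the authors deposited, which hold whole-number UMI counts per gene and barcode, not normalized, made with Cell Ranger on mm10 per the labels. Per the file headers the version was 3.0.2 for WT, PL and T-ALL#1 and 4 for T-ALL#2. The labels name 2 chemistries without saying which library had which. Cells were filtered as given above, no doublet caller was run, and thinning to 2000 UMIs used a fixed seed. Counts were summed per library and state and tested with edgeR 4.0.16 (R 4.3.3; TMM, filterByExpr, glmQLFit with robust = TRUE) with the library as a block, since both sums of a library come from 1 mouse. Mki67, Top2a, Cd4, Cd8a and Il2ra were left out of counts they define. DESeq2 1.42.0 was an alternative. CPM intervals are exact Poisson intervals (95%), and shares have exact binomial ones, for counting error only. The scripts were tested on simulated data. The 8 genes, the other lists and the alternatives were chosen with earlier results of these data known. From a published T cell quiescence set, enriched in dormant cells of these samples, the paper names Btg1, Btg2, Zfp36 and Pnrc1 among others. Their direction here is thus not independent evidence. All 8 members were named, and of other lists at most the 4 genes with the largest called change, with the 3 genes of highest correlation to each member, which are not reported here for Zfp36l2. The lowest and highest classes, and values given by window, were picked for description after they were seen.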

Additional observations from a re-analysis of the deposited data

Results flagged for a closer look

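The T-ALL#2 matrix also holds barcodes of at most 100 UMIs, which were not used as cells, and all 8 genes were above the limit of 3 UMIs there. Btg1 was at 163 CPM in these barcodes against 179 CPM in T-ALL#2 cells, Btg2 at 163 against 146, Pnrc1 at 193 against 190 and Zfp36l2 at 185 against 191. Zfp36l1 was at 46.8 CPM against 49.0, Tob2 at 18.2 against 16.4 and Tob1 at 14.3 against 14.4, and the interval of the log2 difference between cells and empty barcodes included 0 for these 7 genes. Zfp36 was the exception, at 25.9 CPM in empty barcodes and 14.2 CPM in cells, a log2 difference of -0.87 (-1.30 to -0.41). The matrices of the other 3 libraries held called cells, so the same level was not measured in them.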

How the results depend on the processing

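Without the replicate block, genes higher in non-cycling cells fell from 3149 to 185 and genes lower from 3093 to 737 (edgeR), the members called from 7 to 2, and in the Il2ra comparison 0 genes passed in either direction (768 had an unadjusted p under 0.05), with 0 members lower and Zfp36l1 at -0.021. The library pairs both sums of a mouse by design. Genes higher and lower in non-cycling cells numbered 1831 and 1854 after thinning and 1487 and 1654 in the Il2ra class alone, and 37 and 162, then 677 and 984, in the windows of 4000 to 8000 and 8000 to 16000 UMIs added after seeing the data, with 1 and 2 members higher. In the lower window Tob1 (-0.11), Tob2 (-0.0086) and Zfp36l2 (-0.026) turned sign. For the Il2ra comparison (278 genes higher, 188 lower) the numbers were 713 and 542 with a filter of 1 UMI, where 1 member was higher and 4 lower, 174 and 91 with under 5% mitochondrial UMIs, 121 higher with cycling cells kept, and 88 lower after thinning. Leaving out 1 library gave 4 to 341 higher, 3 to 221 lower and 0 to 3 members lower. Zfp36l1 ran from -0.21 to 0.28 with 1 library left out, and stood at -0.30 with cycling cells kept, -0.055 without Cd44-positive cells and -0.073 at 4000 to 16000 UMIs. Between libraries, members 2-fold lower in both leukemias than PL were 0 with TMM factors. They were also 0 in double-positive cells and in the Il2ra class, each with its cycling cells kept. In non-cycling Il2ra cells alone, Zfp36l2 was at 492 CPM in PL, 128 in T-ALL#1 and 170 in T-ALL#2. Members 2-fold higher in PL than in WT were 0 in both classes with cycling cells kept. Members 2-fold lower in PL than in WT were 4 by the mean over cells and 1 in the Il2ra class (Tob2). There Zfp36l2 was at a log2 difference of -0.048. Apart from the windows, 195 fitted values of members kept direction and call, 12 lost and 5 gained a call, and 4 turned sign. Of the members' ratios between libraries, which have no replicates, 130 moved beyond the counting interval of the value given, 61 did not and 1 turned sign. The cause of these changes was not tested.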
